A study of Mus musculus with 2 samples.

Results

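The thick ascending limb is the part of the loop of Henle that takes salt out of the tubular fluid without letting water follow. The genes described are 6 that carry, regulate or mark this transport: Slc12a1, Kcnj1, Bsnd, Umod, Casr and Ptger3. They were chosen by name, and all 6 were found by Ensembl identifier in both the gene and the transcript tables, out of 43346 mouse genes. The values are total RNA-seq of kidney from B6NCrl mouse embryos at 16.5 days of development, in 1 group of 2 libraries that the labels give as biological replicates 1 and 2. Each library is a pool of healthy male and female embryos, and the labels name no treatment or genetic change; replicate 2 was pooled from 41 embryos, and the labels leave out the number for replicate 1. Both pools carry the same donor label, and each value is an average over all cell types of the tissue.

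In the thick ascending limb, the apical cotransporter NKCC2, encoded by Slc12a1, brings sodium, potassium and chloride into the cell. Potassium returns to the lumen through the channel ROMK (Kcnj1), and chloride leaves at the basal side through chloride channels, which need barttin (Bsnd) to reach the membrane and conduct. The sodium pump removes the sodium. The transport as a whole sets up a voltage across the epithelium, which drives calcium and magnesium between the cells. The calcium-sensing receptor (Casr) and the prostaglandin E2 receptor EP3 (Ptger3) restrain this transport, and uromodulin (Umod) is the protein that the segment secretes into urine.

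Slc12a1 is made in 3 splice forms that differ in a single mutually exclusive cassette exon, which encodes part of the transport pathway for ions. In rodents and rabbits form A is found along the whole limb, form B mainly in its cortical part and the macula densa, and form F mainly in the medulla, and F is known to bind chloride more weakly than A and B. In the GENCODE M21 annotation on GRCm38 each cassette is exon 5 of its transcript, is wholly coding and is 96 bases long. The cassettes lie on the plus strand in the order B, A, F, at chr2:125165495-125165590 for B, chr2:125166123-125166218 for A and chr2:125166673-125166768 for F. The letters B, A and F were given by that order along the gene, as background knowledge. The cassette sequences are shown because the shares of the splice forms rest on reads that tell them apart. They are read from the annotated transcripts 5′ to 3′, and capitals mark the bases of B and F that differ from A at the same position.
B cassette (Slc12a1-202): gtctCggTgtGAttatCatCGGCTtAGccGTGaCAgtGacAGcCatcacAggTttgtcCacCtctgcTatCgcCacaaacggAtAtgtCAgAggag
A cassette (Slc12a1-201): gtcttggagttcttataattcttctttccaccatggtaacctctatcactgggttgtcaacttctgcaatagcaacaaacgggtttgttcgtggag
F cassette (Slc12a1-203): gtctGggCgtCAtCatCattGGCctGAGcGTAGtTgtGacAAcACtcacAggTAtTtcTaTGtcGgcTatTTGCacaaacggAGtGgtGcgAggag

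B and A had the same base at 63 of 96 positions, F and A at 56, and B and F at 66. All forms shared the first 4 and the last 4 bases, and differences lay throughout the rest. GC content was 52.1% in B, 42.7% in A and 51.0% in F.

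All 6 genes had counts in both libraries, and 5 of the 6 reached 1 TPM in both. TPM is the authors' abundance value, scaled to transcript length and to the library's total. Across the kidney 34.7% of mouse genes and 62.2% of protein-coding genes reached that level. Slc12a1 was highest and Casr lowest, with a ratio of 3.94 between the mean TPM of Slc12a1 and that of the next gene, Kcnj1. Because whole organs were pooled, fewer cells of a type and less RNA per cell cannot be told apart. Values are given per library and as the mean ± SD (n = 2); an exact paired test over 2 libraries cannot give a two-sided p under 0.5, so no test was made.

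Slc12a1 (ENSMUSG00000027202.8, chr2:125152505-125230002, plus strand) stood at 57.7 TPM in replicate 1 and 63.3 TPM in replicate 2, from 5822 and 6919 counts. Its mean of 60.5 ± 3.92 TPM (SD, n = 2) lay above 86.5% of protein-coding genes. The deposited bounds of the estimate ran from 54.8 to 57.9 TPM in replicate 1 and from 60.3 to 63.4 TPM in replicate 2, so the libraries differed by more than these bounds. An antisense gene, Gm14002, overlaps it on the other strand, and no label states whether counting used strand, but that gene held 16 and 9 counts.

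Kcnj1 (ENSMUSG00000041248.8, chr9:32372493-32399197, plus strand) stood at 15.01 and 15.7 TPM in replicates 1 and 2, with a mean of 15.4 ± 0.495 TPM (SD, n = 2). Bsnd (ENSMUSG00000025418.7, chr4:106483456-106492283, minus strand) stood at 12.8 and 13.9 TPM, with a mean of 13.3 ± 0.771 TPM (SD, n = 2). The potassium exit channel and the chloride channel subunit were thus close in level, with Kcnj1 above Bsnd by a ratio of 1.17 in replicate 1 and 1.13 in replicate 2. The values of the libraries did not overlap between these genes, and the deposited bounds within a library did not touch either (14.50 TPM as the lower bound of Kcnj1 and 14.47 TPM as the upper bound of Bsnd in replicate 2). Within a library, Slc12a1 exceeded Kcnj1 by a ratio of 3.84 in replicate 1 and 4.03 in replicate 2.

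Umod (ENSMUSG00000030963.5, chr7:119462711-119479282, minus strand), the most abundant protein of adult urine, was far below Slc12a1 at this stage. It stood at 6.75 TPM in replicate 1 and 8.48 TPM in replicate 2, from 368 and 502 counts, with a mean of 7.62 ± 1.22 TPM (SD, n = 2). The TPM of Slc12a1 was 8.55 times that of Umod in replicate 1 and 7.46 times in replicate 2. The deposited bounds of Umod, 5.93 to 7.28 TPM in replicate 1 and 7.60 to 9.05 TPM in replicate 2, did not overlap. The antisense gene Gm44588 overlaps Umod in M21 and has no entry in the deposited tables. Since no label states whether counting used strand, it is not known whether reads from Gm44588 were counted in Umod. The deposited Umod model is 2472 bases long, against 2625 bases in M21.

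The receptors were lowest. Ptger3 (ENSMUSG00000040016.12, chr3:157566892-157645888, plus strand) stood at 5.32 and 5.49 TPM in replicates 1 and 2, with a mean of 5.41 ± 0.12 TPM (SD, n = 2), above 49.8% of protein-coding genes. Casr (ENSMUSG00000051980.9, chr16:36493696-36562141, minus strand) stood at 0.71 and 1.05 TPM, with a mean of 0.88 ± 0.24 TPM (SD, n = 2), above 36.1% of protein-coding genes. Casr was thus the member that missed 1 TPM in a library, and only in replicate 1. Its counts were nearly equal, 68 in replicate 1 and 72 in replicate 2, with exact 95% Poisson intervals of 52.8 to 86.2 and 56.3 to 90.7 that cover counting error only. The effective length used for its TPM was 4143 bases in replicate 1 and 2747 bases in replicate 2, since it follows the estimated mix of transcripts; scaled to the sum of mouse counts alone (CPM), Casr stood at 1.98 and 1.90. Its deposited bounds were wide, from 0.606 to 1.49 TPM in replicate 1 and from 0.683 to 1.88 TPM in replicate 2, and they overlapped.

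From highest to lowest the order was Slc12a1, Kcnj1, Bsnd, Umod, Ptger3 and Casr. For all 5 pairs of neighbours both libraries of the higher gene lay above both libraries of the lower one. The closest neighbours were Kcnj1 and Bsnd, with a ratio of means of 1.15, followed by Umod and Ptger3 with 1.41. With 2 libraries this order is a description.

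**Figure D1:**
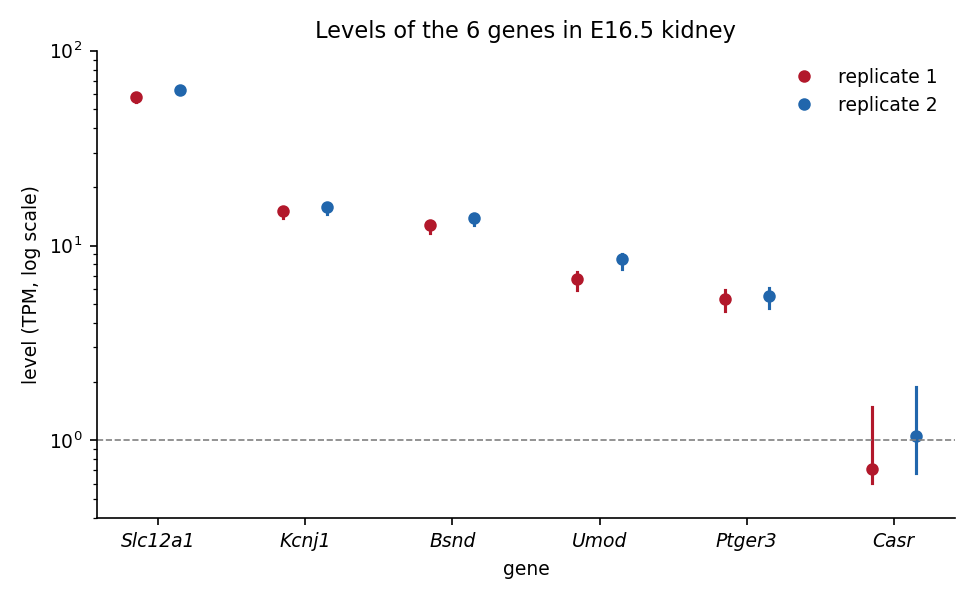
TPM (log axis) of each gene in replicates 1 and 2; points are deposited values, vertical lines the deposited bounds (set around the posterior mean, so that points can sit near an end) and the dashed line 1 TPM. Slc12a1 lies near 60.5 TPM and Kcnj1, Bsnd, Umod and Ptger3 between 5.32 and 15.7 TPM, while both Casr values have bounds that span 1 TPM.

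None of the 6 differed by more than 1.5-fold between replicate 1 and replicate 2. Of the 15363 mouse genes that averaged 1 CPM or more, 5.88% did (3.85% higher and 2.03% lower in replicate 1). All 6 members passed that filter. For so few genes, none past 1.5-fold is close to that background and is no result about the members. By counts (CPM), the largest difference was that of Umod, with a log2 ratio of replicate 1 over replicate 2 of -0.32, followed by Slc12a1 with -0.12, Bsnd with -0.11, Kcnj1 with -0.06, Casr with 0.05 and Ptger3 with -0.02. On the log2(TPM + 0.1) scale, which takes in the effective length, Casr differed most and its sign turned, with -0.51 against -0.32 for Umod. For the log2 ratio by counts, the median size over all genes in the comparison was 0.11 and the 90th percentile was 0.43. Scaled to the spike-ins, the median of all genes was -0.43 and Umod alone of the 6 passed 1.5-fold with -0.75, where 17.7% of genes did (1.75% higher and 16% lower in replicate 1). Relative to that shift of all genes, the ratio of Umod was as before.

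**Figure D2:**
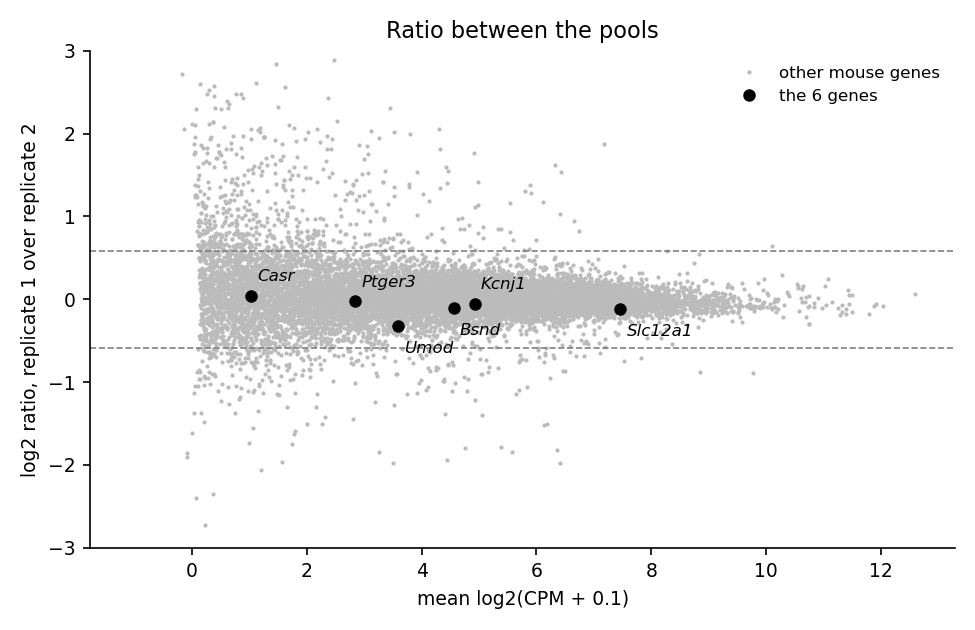
The log2 ratio of replicate 1 over replicate 2 (vertical axis) against the mean log2(CPM + 0.1) of each gene (horizontal axis) for 15363 genes, with the 6 genes in black and dashed lines at 1.5-fold. The 6 genes lie between -0.32 and 0.05, inside the dashed lines; 19 other genes lie beyond the vertical axis.

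All 3 splice forms of Slc12a1 were present, with form A first in both libraries. Form A (Slc12a1-201) took 51.0% of Slc12a1 TPM in replicate 1 and 47.1% in replicate 2, a mean of 49.1% ± 2.79 (SD, n = 2). Form F (Slc12a1-203) took 23.4% and 26.6%, a mean of 25.04% ± 2.26. Form B (Slc12a1-202) took 19.4% and 19.9%, a mean of 19.6% ± 0.354. The order A, F, B was the same in both libraries and the values of different forms did not overlap.

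In TPM, form A stood at 29.5 in replicate 1 and 29.8 in replicate 2, form F at 13.5 and 16.9 (mean 15.2 ± 2.35), and form B at 11.2 and 12.6 (mean 11.9 ± 0.99; SD, n = 2). The ratio of A to F was 2.18 in replicate 1 and 1.77 in replicate 2, and the ratio of F to B was 1.21 and 1.34. The deposited bounds set form A apart from the others but not F from B. In replicate 1 they ran from 25.7 to 32.8 TPM for A, from 9.35 to 16.3 TPM for F and from 8.15 to 13.3 TPM for B. In replicate 2 they ran from 25.4 to 32.4 TPM for A, from 13.1 to 19.9 TPM for F and from 9.81 to 14.98 TPM for B, so F and B overlapped in both. These shares rest on a small part of each molecule: the cassette is 2.07% of the length of the A transcript. The annotated B transcript also begins 95 bases upstream of A and the F transcript ends 3 bases earlier, so a share describes the annotated transcript and not the cassette alone.

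The last annotated transcript, Slc12a1-204, is annotated as a retained intron. Its exon 5 runs for 1023 bases from the start of the A cassette across the F cassette, and so holds both. It took 6.13% of Slc12a1 TPM in replicate 1 and 6.38% in replicate 2, a mean of 6.25% ± 0.18 (SD, n = 2). By counts, which are not scaled to its shorter length of 1876 bases, it took 2.48% and 2.58%. Over the 3 coding transcripts alone, form A took 54.4% and 50.3%, form F 24.98% and 28.5%, and form B 20.7% and 21.3%.

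**Figure D3:**
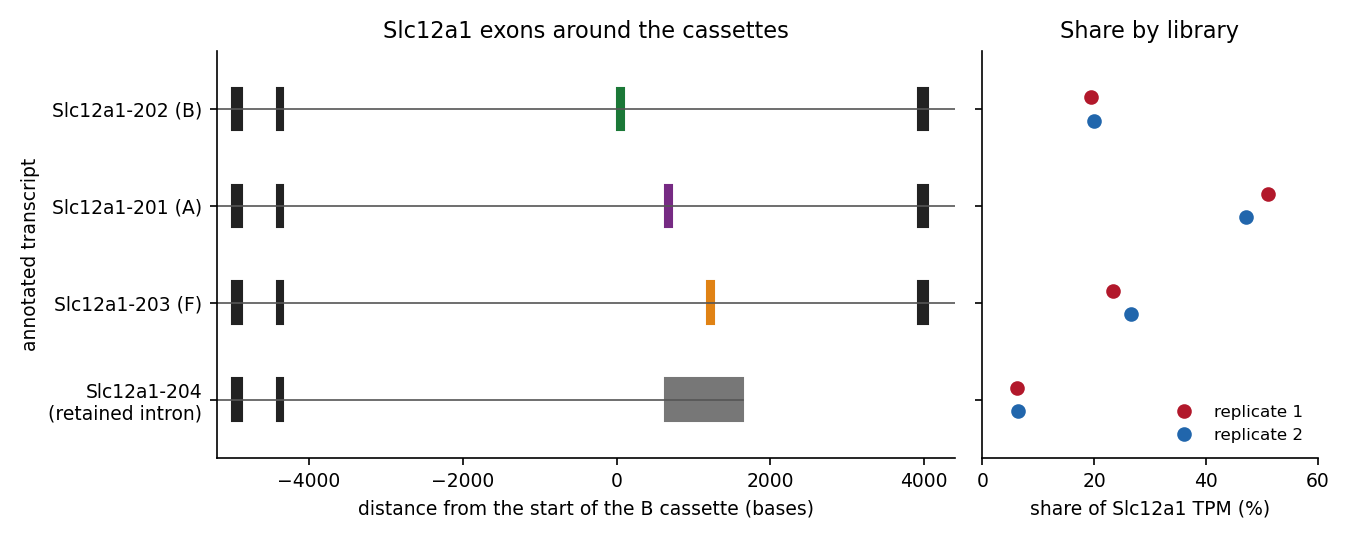
Left, exons of the 4 annotated Slc12a1 transcripts around the cassettes, drawn to scale by distance in bases from the start of the B cassette, with cassettes coloured and the exon of the retained-intron transcript in grey. Right, share of Slc12a1 TPM (percent) in replicates 1 and 2; form A lies at 51.0% and 47.1%, above F and B.

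Of the 4 members with several transcripts in the deposited tables, 2 (Ptger3 and Casr) had a share that differed by over 10 points between the libraries. So did 24.8% of 10194 genes with several transcripts and 1 TPM or more in both libraries, a set that leaves out Casr. Of genes with several transcripts and a count within 1.5 times that of the member, 63.5% of 778 did for Casr and 44.9% of 1086 for Ptger3. Fewer reached the size seen in the member itself. A difference as large as that of Casr, 57.8 points, was found in 4.11% of the 778. For Ptger3, with 20.2 points, it was found in 15.7% of the 1086. For Slc12a1 the largest difference was 3.95 points. Bsnd and Umod have 1 transcript each in the deposited tables (M21 lists 6 for Umod). For Kcnj1, whose transcripts begin at different noncoding first exons in M21, the whole TPM was placed on Kcnj1-201 in both libraries. The posterior mean gave Kcnj1-202 a share of 3.33% in replicate 1 and 2.31% in replicate 2, with upper bounds of 1.37 and 1.08 TPM. The deposited Kcnj1 models are 3068 and 3070 bases long, against 2987 and 3075 bases in M21, so their exons may differ from those in M21.

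Ptger3 is known for splice variants of its intracellular tail, which set how the receptor couples and desensitises. The files list 2: Ptger3-202 holds an extra coding exon 3 of 89 bases at chr3:157641721-157641809 (plus strand, GRCm38) that Ptger3-201 lacks in M21. The length of the exon is not a multiple of 3, and the annotated stop codons of the transcripts lie 77 bases apart. The exon is shown because it is what separates these transcripts, apart from their ends.
Ptger3-202 exon 3: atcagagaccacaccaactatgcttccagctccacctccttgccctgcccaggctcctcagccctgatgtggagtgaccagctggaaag

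Ptger3-202 led in both libraries, with 88.6% of Ptger3 TPM in replicate 1 and 68.4% in replicate 2, a mean of 78.5% ± 14.3 (SD, n = 2). Ptger3-201 took 11.4% and 31.6%, or 0.61 and 1.74 TPM. The libraries therefore differed by 20.2 points, although the total of the gene hardly moved. The deposited bounds of Ptger3-201, from 0.036 to 1.68 TPM in replicate 1 and from 0.596 to 3.21 TPM in replicate 2, overlapped. Among 1086 genes with several transcripts and a count within 1.5 times that of Ptger3, 44.9% had a share that differed by over 10 points between the libraries. In 15.7% of them the difference was as large as that of Ptger3. The deposited model of Ptger3-201 is 2018 bases long, against 3148 bases in M21.

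Casr had too few counts for its transcripts to be ranked. Casr-202, which lacks a coding exon of 231 bases that Casr-201 holds (chr16:36500177-36500407, minus strand), took 66.2% of Casr TPM in replicate 1 and 8.35% in replicate 2. Casr-201 took 18.0% and 39.2%, Casr-203, which begins at another first exon, 15.9% and 15.3%, and the short noncoding Casr-204 0% and 37.1%. The leading transcript thus differed between the libraries, which was so for 21.3% of 778 genes with a count close to that of Casr. It was so for 8.48% of detected genes with several transcripts, a set that leaves out Casr. The share of Casr-202 differed by 57.8 points, and 4.11% of the 778 genes had a largest difference of that size. The bounds of Casr-202, from 0.097 to 0.656 TPM in replicate 1 and up to 0.442 TPM in replicate 2, overlapped. The 37.1% of Casr-204 in replicate 2 came from 2.93 estimated counts on a transcript of 400 bases.

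**Figure D4:**
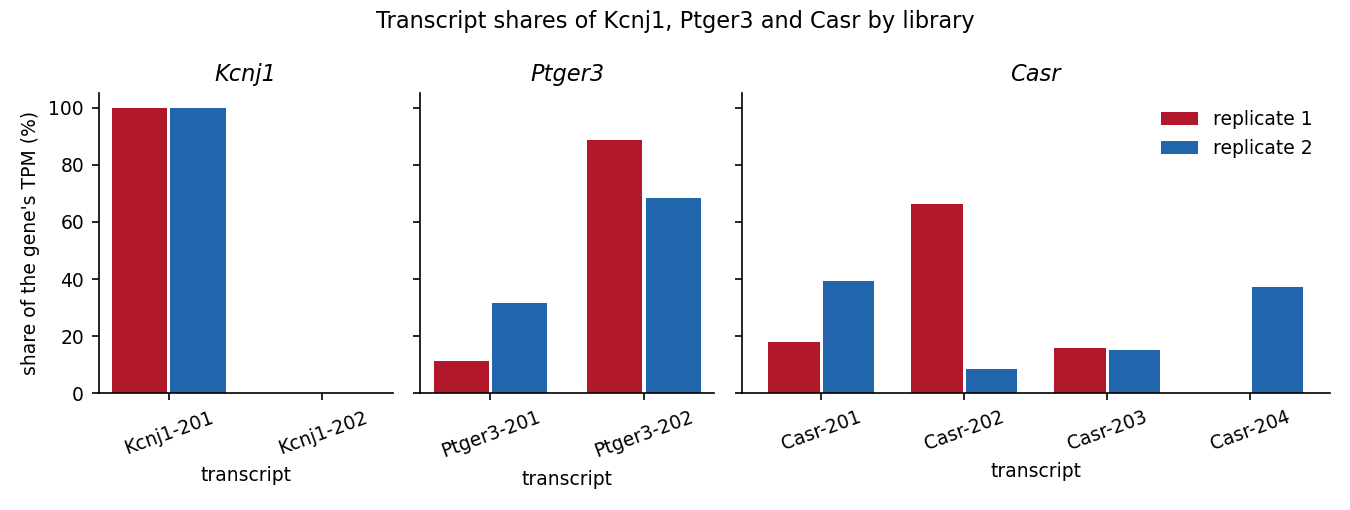
Share of each transcript in its gene's TPM (percent, bars from 0) for Kcnj1, Ptger3 and Casr in replicates 1 and 2. Kcnj1-201 holds 100% in both, Ptger3-202 leads in both with 88.6% and 68.4%, and the leading Casr transcript differs.

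The genes that work beside the members were also present: 51 of 55 genes in 9 lists of the pathway reached 1 TPM in both libraries, against 62.2% of protein-coding genes. The median of their mean TPM was 18.1, against 5.50 for protein-coding genes and 10.5 for the 6 members. Between the pools 3 of the 53 with at least 1 CPM differed by more than 1.5-fold, all lower in replicate 1. That count is close to the background of 5.88% in either direction (2.03% lower in replicate 1). They were the transcription factors Irx1 (log2 ratio -0.98) and Irx2 (-0.78) and the prostaglandin receptor gene Ptger2 (-0.95).

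Among the basolateral potassium channels Kcnj16 stood at 11.9 and 11.3 TPM (mean 11.6 ± 0.42), with Kcnj10, its partner in heteromeric channels, at 1.33 and 1.00 TPM. Of the other potassium channels, Kcnma1, the flow-activated channel, stood at 1.24 and 1.36 TPM, and Kcnt1, a sodium-activated channel, at 0.85 and 0.57 TPM, below the threshold. Kcnj1 exceeded Kcnj16 by a ratio of 1.27 in replicate 1 and 1.40 in replicate 2. Sodium pump genes were far higher, with Fxyd2, the gamma subunit, at 603 ± 53.8 TPM and Atp1b1, the beta subunit, at 196 ± 8.47 TPM (SD, n = 2). The pump serves all tubule segments and other cells, so these levels do not belong to the limb alone.

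Slc12a1 stood well above Slc12a2 and Slc12a3, the relatives on the list. The TPM of Slc12a1 was 7.48 times that of Slc12a2, the widely expressed NKCC1, in replicate 1 and 8.68 times in replicate 2. It was 8.84 and 7.83 times that of Slc12a3, the thiazide-sensitive cotransporter of the distal convoluted tubule. Slc12a2 averaged 7.51 ± 0.30 TPM and Slc12a3 7.31 ± 1.10 TPM (SD, n = 2). The genes of the kinases that switch these carriers on were all detected. Wnk1 stood at 29.4 ± 7.06 TPM and Wnk4, which has Gm11615 annotated antisense to it, at 29.1 ± 4.77 TPM. Stk39 (SPAK) stood at 11.0 ± 2.07 TPM and Oxsr1 (OSR1) at 10.6 ± 0.40 TPM. Maged2, which is mutated in a transient antenatal form of Bartter syndrome, stood at 593 and 647 TPM in replicates 1 and 2, with a mean of 620 ± 38.3 TPM (SD, n = 2). It was thus above every member and above Fxyd2 in each library, and it is not restricted to the limb.

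Some claudins form paracellular paths for cations. The values of the listed claudins are averages over all cell types, and the part of the limb in them was not tested. Cldn3 stood highest at 56.8 ± 1.89 TPM and Cldn10 next at 37.5 ± 5.30 TPM. Cldn19 stood at 19.4 ± 0.81 TPM and Cldn16, its partner in the magnesium path, at 7.54 and 7.92 TPM (mean 7.73 ± 0.27; SD, n = 2). Cldn16 was thus close to Umod, and the TPM of Slc12a1 was 7.65 and 7.99 times that of Cldn16. Cldn14, which in the adult limb blocks that path when Casr is active, held 3 counts in each library, or 0.11 and 0.10 TPM.

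Of the prostaglandin E2 receptors, Ptger1 (EP1) stood above Ptger3 and Ptger4 (EP4) below it. Ptger1 stood at 9.76 and 11.1 TPM in replicates 1 and 2, Ptger4 at 4.23 and 4.50 TPM, and Ptger2 (EP2) at 0.32 and 0.64 TPM. The ratio of Ptger1 to Ptger3 was 1.83 in replicate 1 and 2.03 in replicate 2, and that of Ptger3 to Ptger4 was 1.26 and 1.22. In M21 Ptger1 and part of Ptger4 lie opposite genes on the other strand, so without knowledge of strand these levels, and the order of the receptors, are uncertain. Of the enzymes, Ptges3 stood at 353 ± 13.2 TPM, a protein that also serves as a chaperone partner, Ptgs1 (COX-1) at 33.1 ± 0.45 TPM, and Ptges, the inducible synthase, at 18.1 ± 3.98 TPM. Hpgd, which breaks prostaglandins down, stood at 19.8 ± 2.47 TPM. Ptgs2 (COX-2), the enzyme of the macula densa, stood at 1.08 and 1.49 TPM (mean 1.29 ± 0.29; SD, n = 2), lowest of the enzymes.

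The listed genes for proteins that pass on the signal of Casr were all detected as RNA. Among them were the G protein subunit genes Gnai2 at 373 ± 2.45 TPM and Gna11 at 76.7 ± 1.12 TPM, with Plcb1 lowest at 18.4 ± 2.39 TPM. These levels are averages over all cell types, and the part of cells that make Casr in them was not tested. Genes linked to uromodulin and apical traffic were detected in 5 of 5 cases. They were led by Vamp8, a vesicle fusion protein, at 139 ± 17.9 TPM, Dnajb11, an endoplasmic reticulum chaperone, at 97.4 ± 7.85 TPM, and Hpn, the protease that releases uromodulin from the cell, at 62.1 ± 3.51 TPM. Sorl1, a sorting receptor that acts on the NKCC2 pathway, was lowest at 9.92 ± 0.89 TPM (SD, n = 2). Hpn and Dnajb11 were both higher than Umod in each library, and they are made by other cells as well.

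Of hormone receptors and other transporters of the segment all 6 were detected. Pth1r, the parathyroid hormone receptor, which is also high in proximal tubule, stood at 79.1 ± 5.22 TPM, Ramp3, a partner protein of the calcitonin receptor family, at 13.2 ± 0.46 TPM and Avpr2, the vasopressin V2 receptor, at 6.17 ± 0.45 TPM. Avpr2 lies within the span of L1cam and Arhgap4 on the other strand, so its level is uncertain as well. Egf, which the mature limb and distal tubule make in large amounts, was lowest at 1.34 and 1.33 TPM (mean 1.34 ± 0.01; SD, n = 2). Of the 9 transcription factors of the loop 8 reached 1 TPM in both libraries. Among them Esrrg, an orphan nuclear receptor, stood at 32.5 ± 3.28 TPM and Ppargc1a, a coactivator of mitochondrial genes, at 20.4 ± 1.81 TPM, with Esrrb lowest at 0.79 and 0.65 TPM.

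**Figure D5:**
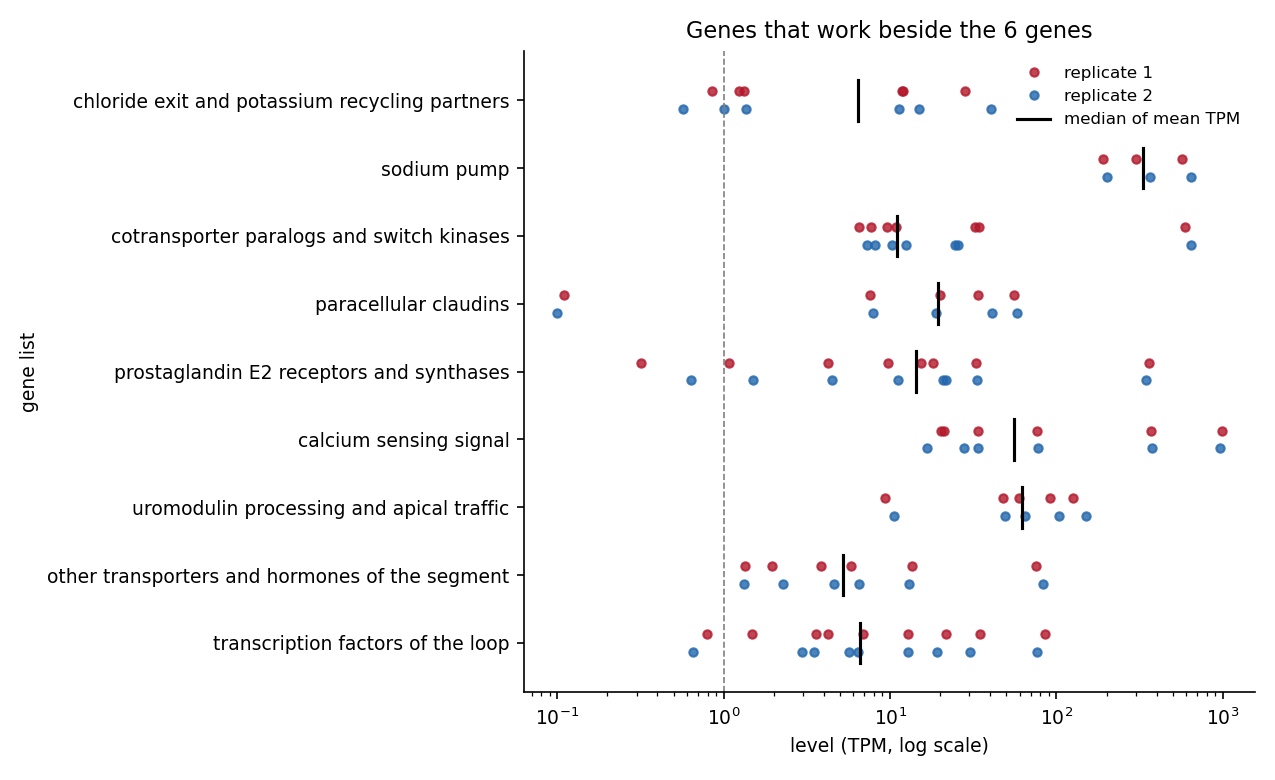
TPM (log axis) of every gene in the 9 pathway lists in replicates 1 and 2, with the median of mean TPM of each list as a black bar and the dashed line at 1 TPM. Sodium pump genes lie between 190 and 641 TPM, and 4 genes have a value left of 1 TPM.

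The labelled tissue was checked against marker lists. All 5 markers of the thick ascending limb were detected (summed TPM 107 in replicate 1 and 122 in replicate 2), where 62.2% of protein-coding genes were. They include the members Slc12a1 and Umod, so this list is no separate check of the segment. Slc12a1 alone gave 57.7 and 63.3 TPM of these sums. Also detected were all 4 markers of the proximal tubule (250 and 275), all 4 of principal cells (172 and 222) and all 4 of intercalated cells (40.4 and 40.1). Of the macula densa 2 of 3 markers were detected, with Nos1 at 0.82 and 0.96 TPM. Of the distal convoluted tubule 2 of 4 were, with Pvalb at 0 and 0.37 TPM. Of the thin descending limb 1 of 3 was, Aqp1 at 41.6 and 58.7 TPM. Its other markers, Bst1 at 1.14 and 0.30 TPM and Slc14a2 at 0.93 and 1.25 TPM, each missed 1 TPM in a library. Members are not all private to the limb: Kcnj1 and Bsnd are also made in distal segments, and Ptger3 and Casr in other cell types, and their part in these levels was not tested. The parathyroid genes Pth and Gcm2 held 0 counts in replicates 1 and 2, a result that up to 3 true counts each would allow. The remaining gene of that list, Chga, which other endocrine and nerve cells also make, stood at 11.2 TPM in replicate 1 and 4.50 TPM in replicate 2, a log2 ratio of 1.31 by counts. Adrenal cortex genes were lower in replicate 1, with a summed TPM of 53.9 against 77.2 in replicate 2. Of these, 2 of 3 were past 1.5-fold, where 2.03% of all genes in the comparison were lower in replicate 1 by that much. They were Cyp11a1 (log2 ratio -0.82) and Nr5a1 (-0.84), while Cyp21a1 stood at -0.14. The summed TPM of nerve genes was higher in replicate 1 (27.4 against 18.6 in replicate 2). Neither Stmn2 (log2 ratio 0.49) nor Elavl4 (0.51) passed 1.5-fold, and S100b averaged under 1 CPM. The part of these genes and of Chga in the differences between the pools was not tested. Expected counts on mouse genes summed to 34261328 in replicate 1 and 37900132 in replicate 2.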

How the data were processed

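Per the labels, RNA over 200 nt from pooled embryonic kidneys was sequenced with external spike-ins, and a SMARTer Ultra Low kit manual is among the protocols. The text notes deposited beside the tables name mm10 and M4. Which aligner and quantifier were run, and whether counting used strand, is not given in the sources used. Expected counts deposited by the authors are estimated counts, with reads shared between entries divided among them. The deposited TPM is scaled to length and to a common sum that includes spike-ins. The deposited FPKM is scaled to length and library size. The deposited percent gives each transcript's share of its gene's TPM. The deposited bounds of TPM were used as a signal that is never negative.

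Identifiers were matched without version to GENCODE M21 (GRCm38, also called mm10): 42462 of 43346 mouse genes matched and 884 did not. Models can differ between M4 and M21. Cassettes were classed by M21 exons. Rounded expected counts of mouse genes were scaled in edgeR 4.0.16 under R 4.3.3 by TMM factors, with a prior count of 2 and a filter of a mean of 1 CPM; DESeq2 1.42.0 size factors were an alternative. Other steps used Python 3.11.15, pandas 2.3.3, numpy 2.4.6, scipy 1.17.1 and matplotlib 3.10.9. The ratio code was tested on simulated data. The spike-in share was 2.82% in replicate 1 and 2.08% in replicate 2. The labels call the libraries biological replicates, so each counted as a sample. No likeness of pattern was computed, since 1 group of 2 libraries gives none.

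Members and lists were chosen with earlier results of these data known. Genes named are all members; every gene of the lists on chloride exit, cotransporters and kinases, claudins and prostaglandins; up to 3 highest and the lowest of each other list; and every Slc12a1 transcript and others at 5% or more. Marker genes, overlapping genes, Kcnj1-202 and, after their ratios were seen, Irx1 and Irx2 are named beside that rule. Some genes that the rule takes are not reported here. The threshold of 10 points for share differences and the sets of genes of like count were chosen after the values were seen.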

Additional observations from a re-analysis of the deposited data

How the results depend on the processing

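No paired analysis was possible because the labels name 1 group only. Members detected numbered 5 or 6 of 6 over all units, thresholds and single libraries tried: 6 at 0.5 TPM and in replicate 2 alone, and 5 otherwise. Genes of the pathway lists detected numbered 51, with 53 at 0.5 TPM and 41 at 5 TPM. Members past 1.5-fold between the pools numbered 0 under every scaling, prior count and filter except spike-in scaling, where it was 1 (Umod). Calls over all genes were 903 (591 higher and 312 lower in replicate 1), against 2724 with spike-ins (269 higher and 2455 lower), 5739 of 25149 without a filter and 361 at 2-fold. Splice form A had 52.3% over coding transcripts alone; form B had 20.96% there and 20.8% by expected counts. Leaving out a library gave 47.1% to 51.0% for A, 19.4% to 19.9% for B and 23.4% to 26.6% for F. Under other units or subsets, transcript shares other than these moved by more than their SD in 6 cases and by less in 19, and levels in 7 and 11. With 2 libraries, leaving 1 out cannot move a mean by more than its SD, so it says nothing of stability: the share of Casr-202 was 8.35% or 66.2%. Restricting TPM to protein-coding genes raised the levels by 1.19 to 1.20 times. Casr rests on 68 and 72 counts, which limits its transcript shares.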
